A study of Mus musculus with 3 samples.

Results

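The subject of this report is a set of 44981 stretches of open chromatin in mouse kidney cells that were called as peaks in 2 libraries made mostly of tubule cells and had no peak in another library made mostly of immune cells. Joining all peaks of the 3 libraries that share 1 bp or more gave 250005 regions. A merged region is a member if it holds a peak of the library from an old kidney called old replicate 2 and a peak of the young library, and no peak of old replicate 1. Members are therefore 18.0% of all merged regions. Another 72317 regions held a peak in every library and serve below as the comparison. Members were chosen by the peak calls of all 3 libraries, so the absence of members from old replicate 1 and their presence in the other 2 libraries are descriptions and not findings.

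All libraries came from kidneys of mice that carry a point mutation in trnE, the mitochondrial gene for the glutamate transfer RNA, and they were profiled by mtscATAC-seq. In this assay fixed and permeabilised cells are cut by a transposase at open DNA, and the mitochondria are retained. Old replicate 1 was from a 75-week-old mouse in which 75% of the mitochondrial genomes carried the mutation. In old replicate 2 the age was also 75 weeks and the load 80%. In the young library the age was 3 weeks and the load 80%. No kidney without the mutation was used here. The strain and the sex of the mice are not given in the sources used here. None of the 4 promoter windows of Ddx3y, Eif2s3y, Kdm5d and Uty, which are Y-linked genes active in most male cells, lay wholly inside a merged region. Other regions of the Y chromosome were called, 15 of them in every library and 6 among the members. The sex of the mice was not determined from these data. Only 1 library per age holds the members, so each difference below compares 2 libraries, has no replicate check and carries no p-value. Age, animal and library preparation cannot be told apart.

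Open chromatin outside promoters is where sequence-specific transcription factors bind to enhancers, and it differs between cell types far more than promoters do. In the nephron, the proximal tubule reabsorbs most filtered glucose, amino acids, phosphate and bicarbonate, and its genes are controlled by HNF4A together with other nuclear receptors such as PPARA and ESRRG. The loop of Henle, distal tubule and collecting duct carry out salt reabsorption and acid secretion with another set of transporters. Immune cells depend instead on factors such as PU.1 and RUNX.

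Most members lie away from promoters, but the few at promoters show which genes the set marks. The sequences of 9 such promoters are printed because later results turn on them; they were chosen after their values had been seen. Each is 300 bases long, from 250 bases before to 50 bases after the annotated start, read 5′ to 3′ on the strand of the gene, and taken from RefSeq on build GRCm38.p6. Capitals mark the letters searched for HNF4, CAAAGTCCA, on either strand. A sequence without capitals does not hold them.

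Slc37a4 is the strongest protein-coding promoter of the set apart from Errfi1, and it encodes the glucose-6-phosphate carrier of the endoplasmic reticulum, which the last step of gluconeogenesis needs. Its window is chr9:44398104-44398403 on the plus strand.
Slc37a4: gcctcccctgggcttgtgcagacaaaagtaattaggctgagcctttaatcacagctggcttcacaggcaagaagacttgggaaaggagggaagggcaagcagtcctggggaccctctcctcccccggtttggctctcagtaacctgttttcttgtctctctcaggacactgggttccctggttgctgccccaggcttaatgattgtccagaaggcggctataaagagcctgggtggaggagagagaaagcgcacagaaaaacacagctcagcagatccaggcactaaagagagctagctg
Pafah2, an intracellular acetylhydrolase of platelet-activating factor, has the HNF4 letters. Its window is chr4:134397221-134397520 on the plus strand.
Pafah2: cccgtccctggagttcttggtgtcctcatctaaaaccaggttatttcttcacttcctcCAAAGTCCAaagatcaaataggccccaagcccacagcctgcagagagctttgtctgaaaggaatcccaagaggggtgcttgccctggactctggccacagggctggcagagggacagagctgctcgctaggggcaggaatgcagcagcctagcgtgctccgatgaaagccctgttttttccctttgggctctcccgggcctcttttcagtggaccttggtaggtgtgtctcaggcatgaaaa
Amn encodes amnionless, the partner of cubilin in protein uptake, and stands for promoters open mainly in the proximal tubule. Its window is chr12:111270846-111271145 on the plus strand.
Amn: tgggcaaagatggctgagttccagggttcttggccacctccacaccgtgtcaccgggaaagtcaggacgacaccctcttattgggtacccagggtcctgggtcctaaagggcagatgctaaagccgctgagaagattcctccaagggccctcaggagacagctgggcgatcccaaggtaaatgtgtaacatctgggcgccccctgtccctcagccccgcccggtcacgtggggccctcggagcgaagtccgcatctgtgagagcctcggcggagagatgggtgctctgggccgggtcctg
Dab2, an endocytic adaptor of megalin, is of the same kind. Its window is chr15:6299539-6299838 on the plus strand.
Dab2: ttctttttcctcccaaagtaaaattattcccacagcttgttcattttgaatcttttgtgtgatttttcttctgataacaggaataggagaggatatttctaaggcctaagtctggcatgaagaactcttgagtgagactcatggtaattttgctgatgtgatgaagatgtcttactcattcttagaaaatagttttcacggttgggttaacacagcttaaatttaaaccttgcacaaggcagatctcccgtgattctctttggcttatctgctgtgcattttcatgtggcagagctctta
Acsm1, a medium-chain acyl-CoA synthetase, had the highest ratio of proximal tubule-like to loop to collecting duct-like level of these 3 promoters. Its window is chr7:119617562-119617861 on the plus strand.
Acsm1: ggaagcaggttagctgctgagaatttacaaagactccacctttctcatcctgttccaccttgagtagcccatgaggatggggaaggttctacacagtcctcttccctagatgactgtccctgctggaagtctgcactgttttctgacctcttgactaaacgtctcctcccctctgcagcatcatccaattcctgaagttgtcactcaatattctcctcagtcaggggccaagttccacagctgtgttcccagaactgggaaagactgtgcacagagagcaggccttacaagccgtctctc
Slc12a1, the sodium-potassium-chloride cotransporter of the thick ascending limb, stands for promoters open outside the proximal tubule. Its window is chr2:125152350-125152649 on the plus strand.
Slc12a1: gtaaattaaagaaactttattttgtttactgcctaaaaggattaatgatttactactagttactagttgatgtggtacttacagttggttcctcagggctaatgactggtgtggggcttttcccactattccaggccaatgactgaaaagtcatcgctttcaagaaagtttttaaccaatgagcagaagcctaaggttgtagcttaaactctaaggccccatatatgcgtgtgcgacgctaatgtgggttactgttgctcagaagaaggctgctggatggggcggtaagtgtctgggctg
Klk1, a tissue kallikrein of the distal nephron, is a further example of that kind. Its window is chr7:44225110-44225409 on the plus strand.
Klk1: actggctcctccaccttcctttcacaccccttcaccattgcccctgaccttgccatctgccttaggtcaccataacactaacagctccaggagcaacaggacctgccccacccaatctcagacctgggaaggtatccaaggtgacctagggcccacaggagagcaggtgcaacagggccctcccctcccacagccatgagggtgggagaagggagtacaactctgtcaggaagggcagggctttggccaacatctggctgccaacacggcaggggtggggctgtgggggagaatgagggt
Prok1, a secreted prokineticin, had the largest difference between the old and the young library among protein-coding promoters. Its window is chr3:107238603-107238902 on the minus strand.
Prok1: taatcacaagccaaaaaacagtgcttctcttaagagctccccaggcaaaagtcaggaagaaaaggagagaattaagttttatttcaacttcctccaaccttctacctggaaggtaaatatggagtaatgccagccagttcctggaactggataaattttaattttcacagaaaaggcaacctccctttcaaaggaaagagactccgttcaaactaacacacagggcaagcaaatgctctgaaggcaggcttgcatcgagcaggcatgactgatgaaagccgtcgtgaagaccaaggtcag
Kng2, a kininogen, differed in the same direction. Its window is chr16:23029052-23029351 on the minus strand.
Kng2: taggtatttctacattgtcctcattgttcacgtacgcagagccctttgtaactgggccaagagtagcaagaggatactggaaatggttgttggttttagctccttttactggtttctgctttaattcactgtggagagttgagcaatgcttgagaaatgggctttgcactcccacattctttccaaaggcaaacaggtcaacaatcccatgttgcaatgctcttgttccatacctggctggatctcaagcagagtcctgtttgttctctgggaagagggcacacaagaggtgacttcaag

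The libraries held 5656, 4302 and 4440 barcodes and 96093221, 64729297 and 110871506 counts in peaks for old replicate 1, old replicate 2 and young. Between 28 and 39 barcode sequences were shared by each pair of libraries. Clustering on the regions with a peak in every library, which leaves the members out, placed 257 of 5315 kept cells of old replicate 1 among proximal tubule-like cells, against 3506 of 3950 in old replicate 2 and 3327 of 3976 in young. Old replicate 1 thus had few cells in which tubule chromatin could be called as a peak, and lack of a peak there does not show that a member was closed in its tubule cells.

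Levels are given as CPM, the counts in a region scaled to a total of 1000000 counts in the peaks of its library. The median member stood at 2.35 CPM in old replicate 2, which is 152 counts, and at 1.97 CPM in young, which is 219 counts. Regions with a peak in every library had medians of 6.47 and 5.64 CPM, so members are the weaker class. A median member had a count in 1.79% of the barcodes of old replicate 2 and 2.41% of those of young. Members together held 14.2% of the counts of old replicate 2 and 13.4% of those of young.

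The rule has an edge, since a nearby peak of old replicate 1 may fall just short of overlap. There were 1101 members within 100 bp of such a peak, with median levels of 3.74 and 3.23 CPM in old replicate 2 and young. Just outside the rule, 476 regions were joined to a peak of old replicate 1 by an overlap of at most 100 bp, and their medians were 3.35 and 2.74 CPM. A further 8945 members lay over 100 and up to 1000 bp away, and 12331 lay over 10000 bp away with medians of 1.84 and 1.54 CPM. Regions on both sides of this edge thus had similar levels, and the most remote members were the weakest.

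Members were far from promoters. Of the 44981, 827 (1.84%) held a RefSeq promoter window, against 14.9% of the regions with a peak in every library, and the median distance from a protein-coding start was 31.7 kb against 14.7 kb. The centre of 56.2% of members lay in a protein-coding gene body, close to the 55.0% of the comparison regions. Whether these are exons or introns was not resolved. A gene was given to 38347 members (85.3%), either the gene whose body holds the centre or the nearest start within 100 kb, and this placement says nothing of which gene a region controls.

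The counts of members came almost wholly from nephron-like cells, which is what the name nephron claims. Proximal tubule-like cells gave 94.7% of the member counts of old replicate 2 and 96.5% of those of young, and loop to collecting duct-like cells gave 4.69% and 2.00%. Endothelium-like cells gave 0.479% and 0.257%, and macrophage or dendritic cell-like cells 0.0163% and 0.137%. Most of this follows from the make-up of the libraries, because proximal tubule-like cells also gave 92.2% and 94.0% of the counts in the regions with a peak in every library. The share of a cell's own counts that falls in members does not grow with the number of cells as such. It still depends on them through the peak calls. A member needed a peak in libraries made mostly of proximal tubule-like cells, where regions open only in rarer classes are less apt to be called. This share was 14.5% and 13.7% in proximal tubule-like cells of old replicate 2 and young, 11.0% and 11.3% in loop to collecting duct-like cells, and 4.57% and 5.48% in endothelium-like cells. In young it was 1.98% in macrophage or dendritic cell-like cells and from 1.75% to 2.61% in clusters 3, 4 and 18, which have no name. Both tubule classes thus had a higher share than the endothelium-like class, the macrophage or dendritic cell-like class and these unnamed clusters. This follows in part from the rule. Old replicate 1 fills those clusters, and it also held 186 endothelium-like cells, against 105 in old replicate 2 and 50 in young, so regions open in either are more apt to have a peak there.

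**Figure D1:**
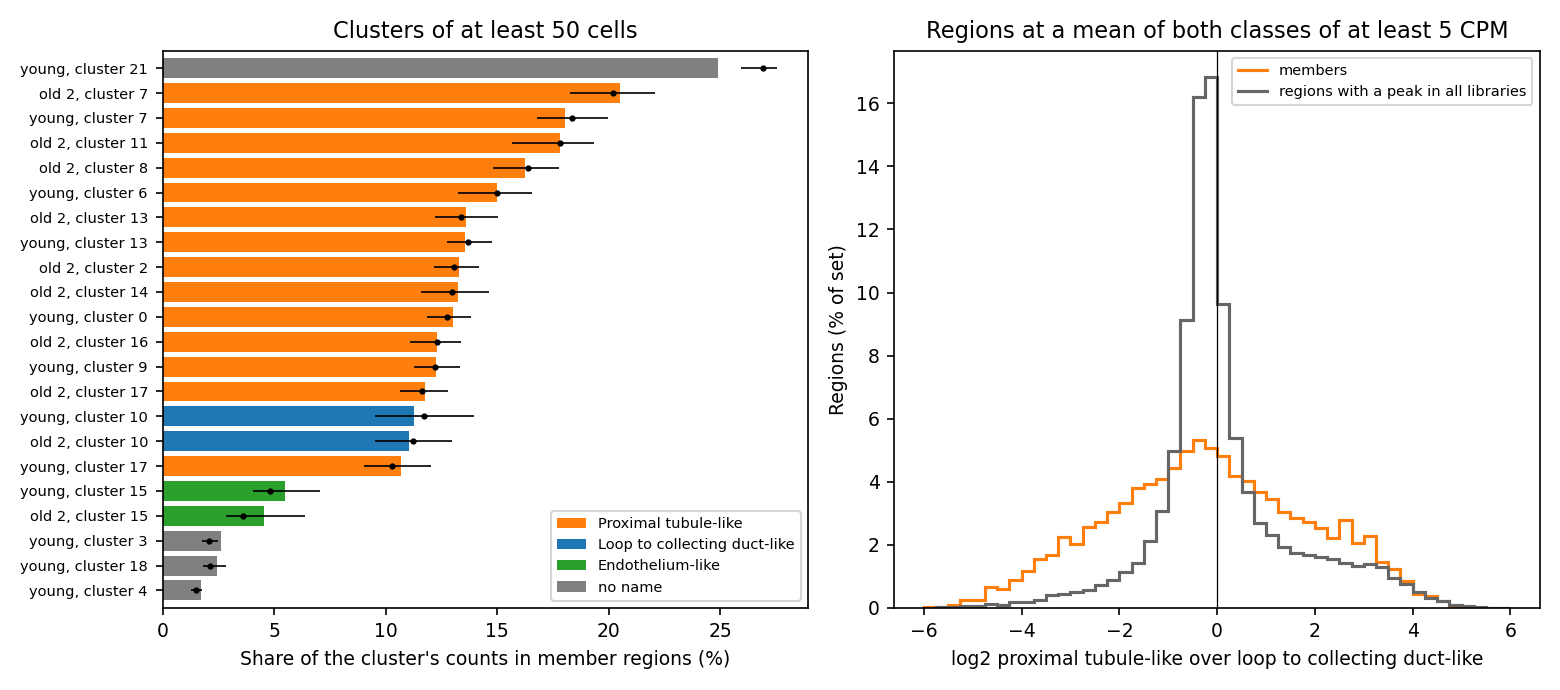
Left, share of a cluster's counts that fall in member regions (bars, percent), for clusters of at least 50 cells in old replicate 2 and young, with the median and the middle 50% of cells as points and lines. Right, distribution of the log2 value of proximal tubule-like over loop to collecting duct-like cells for regions whose mean over both classes is at least 5 CPM, where members (orange) spread wider on both sides of 0 than regions with a peak in every library (grey).

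Within the nephron, members differed between the tubule classes in both directions. Levels were taken over the cells of both libraries pooled, 6833 proximal tubule-like and 526 loop to collecting duct-like cells. Of 5798 members at a mean over both classes of at least 5 CPM, 1658 (28.6%) were at least 2-fold higher in proximal tubule-like and 2024 (34.9%) in loop to collecting duct-like cells. Of the 42006 comparison regions at that level, 19.2% and 12.3% were. Which direction was the more frequent in members turns on the filter, which was chosen after seeing the data. Without one, 17294 of the 44981 members (38.4%) were higher in proximal tubule-like and 4839 (10.8%) in loop to collecting duct-like cells, against 22.3% and 10.7% of the comparison regions. A minimum of 5 CPM over all barcodes gave 4258 and 240 of 6574 members, but most barcodes are proximal tubule-like, so regions open in the loop to collecting duct alone can hardly pass it. At 5 CPM a region has 752 counts in the proximal tubule-like class and 30 in the other, so the latter level is the less certain.

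The Klk1 promoter printed above stood at 0.346 CPM in proximal tubule-like and 27.9 CPM in loop to collecting duct-like cells, and that of Slc12a1 at 0.764 and 16.7 CPM. The promoter of Scnn1b, a subunit of the epithelial sodium channel, stood at 0.844 and 12.5 CPM. The opposite pattern was seen at the printed promoters of Acsm1 (16.2 and 0.335 CPM), Amn (23.3 and 1.17 CPM) and Dab2 (18.9 and 1.00 CPM). Both kinds therefore occur in the set.

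Of the 8 strongest members, all but the one in Nt5c2 lay within 1061 bp of a protein-coding start. A region 915 bp from the start of Zfp687, a zinc finger gene, held 48.5 CPM in old replicate 2 (exact 95% interval 46.2 to 50.9) and 52.4 CPM in young (50.6 to 54.3). It was as high in endothelium-like cells (50 CPM) as in proximal tubule-like cells (50.7 CPM) and lay 17 bp from a peak of old replicate 1. All 8 lay near such a peak, from 4 bp for Rassf7 and 10 bp for Dbi to 523 bp for Slc37a4, so each borders a site that was also called in old replicate 1. A region in Tmbim6, a membrane protein of the endoplasmic reticulum that protects from cell death, held 43.4 and 49.4 CPM, with 3.29 CPM in endothelium-like cells. A region in Nt5c2, a cytosolic nucleotidase, held 39.5 and 48.0 CPM, with no count in endothelium-like cells. Regions of Rassf7, Pdk2, Dbi and Errfi1 lay between 35.9 and 44.2 CPM in both libraries, and the Slc37a4 promoter held 37.2 and 41.4 CPM. All 8 were within 1.22-fold between the libraries. Intervals cover counting error only and were computed on fragments, as both ends of a fragment are counted.

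**Figure D2:**
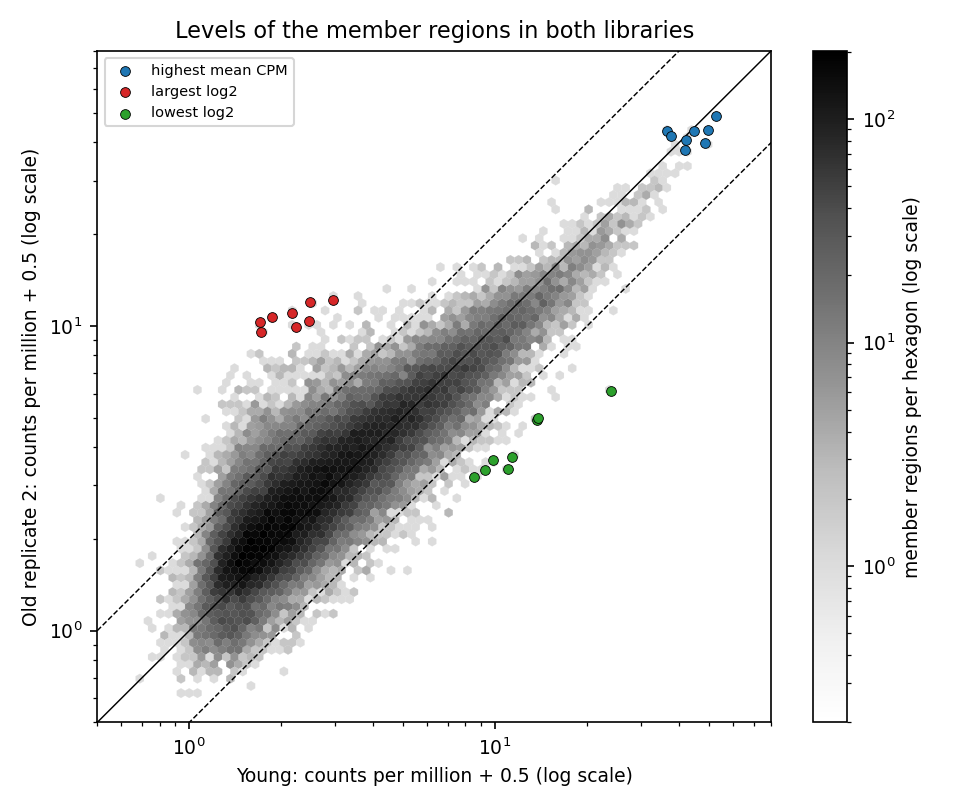
Level of each of the 44981 members in young (x axis) and old replicate 2 (y axis), as CPM plus 0.5 on log scales, with the number of members per hexagon in grey. The solid line marks equality and the dashed lines a 2-fold difference; coloured points are the named regions, with the 8 highest near 40 CPM on the line of equality.

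Most genes of the proximal tubule had a member, and few markers of single immune cell types did. All 17 proximal tubule marker genes had at least 1 member, with 83 members between them, as did 52 of 54 proximal tubule transporter genes (252 members) and 42 of 48 genes of proximal tubule metabolism (145 members). Slc4a4, the basolateral sodium bicarbonate cotransporter, had 25 members summing to 105.9 CPM in old replicate 2 and 98.2 CPM in young. Lrp2, the endocytic receptor megalin, had 11 members summing to 62.2 and 61.4 CPM, and Slc5a2, the glucose carrier SGLT2, had 3 summing to 29.4 and 35.1 CPM. By contrast 3 of 14 macrophage or dendritic cell markers, 2 of 13 T or NK cell markers, 2 of 9 neutrophil markers and 3 of 10 B or plasma cell markers had a member, against 54.2% of all protein-coding genes. A wider list of immune cell genes had one in 18 of 36 cases (50%), near that share, and endothelium markers had one in 9 of 12 and fibroblast, mesangium or smooth muscle markers in 10 of 13. The rule left out peaks of the immune-rich library, so this contrast follows in part from it. The members of Cd4, a T cell and macrophage surface protein, had a log2 value of 1.63 for proximal tubule-like over loop to collecting duct-like cells, and those of Csf1r, a macrophage growth factor receptor, 2.37. Lists that overlap in their genes, such as proximal tubule markers and transporters, are not independent.

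Transcription factors of the nephron carried many members each. All 44 genes of the list had one, and together they had 351. Esrrg had 35 members (103.5 and 127.1 CPM), Glis3 33 (97.4 and 90.1 CPM), Ppara 15 (118.1 and 108.9 CPM) and Pax2 13 (75.4 and 78.2 CPM). Hnf4g had 7 members (21.5 and 24.4 CPM) and Hnf4a 4 (18.3 and 14.5 CPM). None of these was past a 2-fold difference between old replicate 2 and young. The genes with most members were Auts2 with 51, Pard3 with 43, Ptprd with 39, and Lrmda, Mast4, Ptprg, Dab1 and Erc2 with 38 each. These are long genes, and their summed levels in the libraries were within 1.18-fold of each other.

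Genes of the later tubule segments had members too. Thick ascending limb and distal tubule transport genes had a member in 31 of 35 cases and collecting duct genes in 31 of 40. Their members had median log2 values of -0.35 and 0.26 for proximal tubule-like over loop to collecting duct-like cells, against 1.59 for the proximal tubule transporters. Rhcg, an ammonium transporter of the collecting duct, had 10 members (27.1 and 23.2 CPM) and a log2 value of -1.01. Tfcp2l1, a factor of collecting duct cells, had 7 (31.7 and 28.1 CPM) at -0.39. Of the 41 genes of nuclear oxidative phosphorylation and mitochondrial upkeep, 22 (53.7%) had a member, near the 54.2% of all genes. None of these 22 was past 2-fold between the libraries.

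The question of age was addressed by comparing old replicate 2 with young. The log2 value of a region is log2 of its CPM plus 0.5 in old replicate 2 over the same in young, and a value of at least 1 in size counts as past 2-fold. It understates differences at low levels. Old replicate 2 was higher past 2-fold at 1254 members (2.79%, against a background of 2.69% of all regions called in both libraries), and young was higher at 211 (0.469%, against 0.347%). The share higher in old replicate 2 is this near the background and is no result particular to the members. The background includes the members themselves. In regions with a peak in every library the shares were 2.63% and 0.271%. The median log2 value was 0.11 in members and 0.09 in all regions called in both. Scaling to all counts puts 85.6% of the members past 2-fold on the side of old replicate 2. With TMM factors the share was 75.3% and with DESeq2 size factors 73.8%. Over all regions called in both it was 88.6% when scaled to all counts. There 2475 were higher in old replicate 2 and 585 in young with TMM factors, and 2392 and 604 with DESeq2 size factors. This lean is therefore not particular to the members. Members at a mean of at least 5 CPM were more even, with 87 higher in old replicate 2, 61 higher in young and a median of -0.09. At 5 to 10 CPM 1.64% and 0.955% of members were past 2-fold, against 2.65% and 0.182% of regions with a peak in every library. At 10 CPM or more the shares were 0.0749% and 0.823% of members against 0.552% and 0.246%. At these levels the share higher in young was thus larger in members, and its cause was not tested.

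Restricting the counts to proximal tubule-like cells left much the same picture. These cells gave 94.7% and 96.5% of the member counts, so little could change, and this is no separate check on the mix of cells. There 1412 members were higher in old replicate 2 (3.14%, background 3.02%) and 203 in young (0.451%, background 0.331%). Of the members past 2-fold over all barcodes, 1168 of 1254 and 145 of 211 were past it in these cells too.

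The members with the largest value in favour of old replicate 2 were weak in young and near 10 CPM in the old library. A region in the body of Mup5, a major urinary protein, at chr4:61844510-61845478 held 9.79 CPM (8.77 to 10.9) in old replicate 2 and 1.20 CPM (0.942 to 1.51) in young, a log2 value of 2.60. A region in Coro7, a coronin of the Golgi, at chr16:4628608-4629425 held 10.2 CPM (9.14 to 11.3) and 1.36 CPM (1.09 to 1.68), a log2 value of 2.52. The intervals of both regions are far apart. A region in Kif6, a kinesin, at chr17:49733941-49734803 held 11.5 CPM against 1.98 CPM, and regions in Nkain2 and Mpv17l stood at log2 values of 2.15 and 2.08. Mpv17l encodes a small peroxisomal or mitochondrial membrane protein. The other 3 of the 8 had no gene start within 100 kb, at chr14:49664319-49665206 (9.05 and 1.22 CPM), chr11:15088608-15089598 (10.5 and 1.67 CPM) and chr2:96108203-96109115 (11.7 and 2.46 CPM). In proximal tubule-like cells alone all 8 log2 values lay between 2.02 and 2.69.

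In the opposite direction the largest value was in Cntfr, the receptor subunit for ciliary neurotrophic factor. Its region at chr4:41676612-41677514 held 5.62 CPM (4.86 to 6.47) in old replicate 2 and 23.5 CPM (22.2 to 24.8) in young, a log2 value of -1.97. A region in Grid1, a delta-type glutamate receptor, held 2.90 against 10.6 CPM, and one in Wnk2, a kinase of the family that controls salt transporters, 4.42 against 13.2 CPM. Clic6, an intracellular chloride channel protein, had a region at 4.50 against 13.3 CPM and Cobl, an actin nucleator, one at 3.14 against 9.34 CPM. These 5 regions kept log2 values between -1.95 and -1.42 in proximal tubule-like cells. Over all barcodes the levels of young were between 2.95 and 4.17 times those of the old library. Regions near Zmat1 and in Dnah7a had log2 values of -1.61 and -1.42.

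The region of Grin3a, an NMDA receptor subunit, at chr4:49835372-49836280 was different in kind. It held 2.86 CPM in old replicate 2 and 8.77 CPM in young, a log2 value of -1.46, but 65.8% of its counts in young came from the 61 cells of cluster 21. In proximal tubule-like cells the log2 value was -0.83, and without cluster 21 in either library it was -0.51. Cluster 21 has no name, held 7 cells of old replicate 2 and 61 of young, and had 24.9% of its young counts in members. That is above every proximal tubule-like cluster, although it gave only 0.414% of the counts of kept cells. Its leading genes included Klra9, Sall3, Sall1 and Gpr37l1. It held at least 20% of the young counts at 1819 members (4.04%), against 0.397% of the comparison regions, and at 52 of the 211 members higher in young. Without it 163 members were higher in young and 1252 in old replicate 2. A region of Chn2, a Rac GTPase-activating protein, behaved like that of Grin3a, with 67.7% of the young counts from the cluster and a log2 value of -1.41 that was -0.55 in proximal tubule-like cells.

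Summing the members of each gene gives a steadier level. Of 4916 genes with at least 3 members, 39 were past 2-fold higher in old replicate 2 (0.793%) and 1 was higher in young (0.0203%). The background over genes with at least 3 regions called in both libraries was 0.443% and 0.017%. Its sums also take in the stronger regions with a peak in every library, so these shares are not like for like. Kif6 had the most members of the genes higher in the old library: 11, all with a log2 value above 0, summing to 42.2 CPM (40.1 to 44.5) against 15.4 CPM (14.5 to 16.5). P3h1, a prolyl hydroxylase of collagen, had 3 members summing to 16.1 CPM (14.7 to 17.5) against 4.11 CPM (3.61 to 4.67). Foxq1, a forkhead factor, had 4 summing to 18.9 against 6.36 CPM, and Zeb1, a repressor of epithelial genes, had 6 summing to 28.7 against 10.9 CPM. Every member of these 4 genes was higher in old replicate 2. The genes were chosen for the largest sums over these same members, so that follows in part from the choice. Of all members, 60.9% had a log2 value above 0.

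Epas1, which encodes HIF-2α of the hypoxia response, had 4 members summing to 15.2 against 5.88 CPM. Ankrd6, an ankyrin repeat protein of Wnt signalling, had 5 summing to 22.8 against 9.30 CPM, and Mup5 had 4 summing to 29.0 against 11.9 CPM. Actl7b, Gm826 and Osgin2 completed the 10 with the largest values, with log2 values from 1.32 to 1.53. In all 10 the log2 value within proximal tubule-like cells was at least 1.24. All members of these genes stood above 0, which again follows in part from how the genes were chosen.

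**Figure D3:**
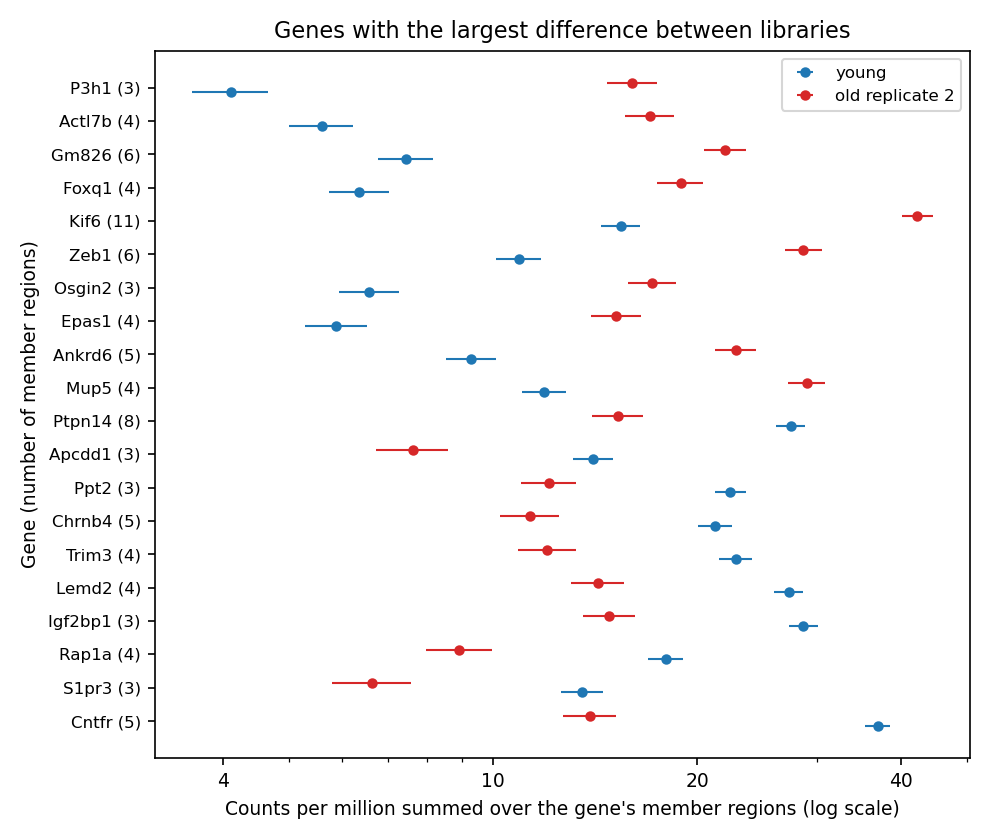
Summed CPM of the members of the 20 named genes in young (blue) and old replicate 2 (red), log scale, with exact 95% counting intervals and the number of members in parentheses. The upper 10 genes are higher in old replicate 2 and the lower 10 in young; of the lower 10 only Cntfr has a log2 value past 1 in size.

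Among genes higher in young, only Cntfr had a log2 value past the threshold. Its 5 members summed to 13.9 CPM (12.7 to 15.2) in old replicate 2 and 36.9 CPM (35.4 to 38.5) in young, and most of the gap lay in the 1 region above. S1pr3, a receptor for sphingosine 1-phosphate, stood at 6.64 against 13.5 CPM, Rap1a, a small GTPase, at 8.93 against 18.0 CPM, and Igf2bp1, an RNA-binding protein of fetal tissues, at 14.9 against 28.7 CPM. These had log2 values from -0.97 to -0.93, with intervals of the libraries that do not overlap. By CPM alone young stood at 2.04 times the old library for S1pr3 and 2.01 times for Rap1a, and the added 0.5 CPM brings both under the threshold. Lemd2, Trim3, Chrnb4, Ppt2, Apcdd1 and Ptpn14 had values from -0.91 to -0.83.

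Old replicate 1 has no value at the members by construction, but its 257 proximal tubule-like cells can be read at other regions of the same genes, those with a peak in every library. Levels are scaled to each library's own peaks. In old replicate 1 these leave out the members, which hold 14.5% and 13.7% of these cells' counts in old replicate 2 and young. Its levels are therefore not on the same scale. Of its 257 cells, 123 were in cluster 16, which held 3 cells of young. The values are no replicate check. Mup5 has no such region, and the levels of the other 19 genes with the largest differences are given here, the old libraries first by number and young last. Among genes higher in old replicate 2 at the members, Foxq1 stood at 86.4, 62.0 and 35.3 CPM, Ankrd6 at 126.5, 104.8 and 49.4 CPM, and Kif6 at 66.9, 58.8 and 45.0 CPM. Actl7b stood at 32.4, 21.5 and 14.3 CPM, P3h1 at 16.0, 14.4 and 10.8 CPM, Zeb1 at 93.8, 72.3 and 68.1 CPM, and Gm826 at 81.3, 65.2 and 61.3 CPM. Epas1 (102.0, 80.3 and 80.9 CPM) and Osgin2 (39.4, 24.9 and 28.8 CPM) were no higher in old replicate 2 than in young at these regions.

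Among genes higher in young at the members, Cntfr stood at 15.2, 15.1 and 26.3 CPM and Igf2bp1 at 13.1, 20.4 and 34.6 CPM. Apcdd1 stood at 19.5, 16.2 and 29.9 CPM, Ptpn14 at 65.7, 54.5 and 85.1 CPM, Lemd2 at 72.9, 66.8 and 86.2 CPM, and Chrnb4 at 1.95, 5.66 and 6.73 CPM. S1pr3 stood at 35.1, 24.6 and 38.3 CPM, Ppt2 at 38.0, 39.5 and 42.4 CPM, and Rap1a at 23.6, 25.2 and 25.2 CPM. Trim3 (46.0, 39.9 and 42.6 CPM) had its highest value in old replicate 1, whose scale differs as stated above. The comparisons of the old libraries with young share the young library and are not independent of each other.

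Of the marker and pathway lists, few genes were past 2-fold, as was so for all genes: of the 11879 with a member, 235 were higher in old replicate 2 and 30 in young. Cyp4b1, a fatty acid hydroxylase, had 3 members summing to 6.58 CPM in old replicate 2 and 1.88 CPM in young, a log2 value of 1.57. Dusp1, an immediate early phosphatase, had 2 members at 8.78 against 1.81 CPM, a log2 value of 2.00. Genes with a single member past 2-fold were Rxrg, a retinoid X receptor (7.28 against 1.35 CPM), Fabp1, the liver-type fatty acid-binding protein (3.97 against 1.07 CPM), Ppp1r1b (3.77 against 1.33 CPM) and the clock gene Cry1 (3.49 against 1.26 CPM). Asns, asparagine synthetase of the amino acid stress response, was higher in young with 0.834 against 2.46 CPM, but its log2 value was -0.35 in proximal tubule-like cells. The 52 proximal tubule transporter genes had a median log2 value of -0.01 with none past 2-fold, which is near that background, and the nephron transcription factors had a median of 0.04 with Rxrg past it.

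A few members at promoters differed between the libraries. Of the 827 members with a promoter window, 35 (4.23%) were higher in old replicate 2, against the background of 2.69%, and 1 (0.121%) in young, against 0.347%. That background is over regions of all kinds, most without a promoter window, and promoters outside the members were not compared. Members without a promoter window had 2.76% and 0.476%. These shares also vary with level. Members with a promoter window had medians of 3.06 and 2.34 CPM. Among all members at a mean of 2 to 5 CPM, 4.66% were higher in old replicate 2, and 5.35% of the comparison regions were. The share of 4.23% is therefore not shown to be an excess at promoters. The Prok1 promoter held 5.98 CPM in old replicate 2 and 1.21 CPM in young, a log2 value of 1.92, and the Kng2 promoter held 4.53 and 1.13 CPM, a value of 1.63. Kng2 was open mainly in loop to collecting duct-like cells (20.1 CPM, against 1.79 CPM in proximal tubule-like cells), a class that made up 8.18% of the cells of old replicate 2 and 5.11% of those of young. Within proximal tubule-like cells its log2 value was 1.72. The promoter of Ifitm10 stood at 12.6 and 3.81 CPM, and that of Tmem196 at 4.26 and 0.911 CPM. The 1 promoter higher in young was that of Upk1a, a uroplakin, with 1.39 against 4.30 CPM.

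Proximal tubule-like cells are not uniform, and members differed among their clusters. The largest 2 proximal tubule-like clusters were numbers 2 (1251 cells) and 8 (649 cells) in old replicate 2, and 0 (1433 cells) and 6 (686 cells) in young. Of the 6574 members at a mean of at least 5 CPM, 224 were past 2-fold higher in cluster 8 than in cluster 2, and 70 were lower (3.41% and 1.06%, against 0.841% and 0.556% of the comparison regions). In young 324 were higher in cluster 6 than in cluster 0, and 149 were lower (4.93% and 2.27%, against 1.45% and 1.22%). Members as a whole held 16.3% of the counts of cluster 8 against 13.3% of cluster 2, and 15.0% of cluster 6 against 13.0% of cluster 0. The numbers past 2-fold include this shift of the whole set. These pairs of clusters share no cells and no library. Of the members higher in cluster 8 and in cluster 6, 117 were the same, which is 52.2% of the first list and 36.1% of the second. Of those lower, 43 were the same (61.4% and 28.9%), and none was past 2-fold in opposite directions. Pearson's r between the log2 values of the libraries was 0.67 over the 6574 members and 0.60 over the comparison regions, and regions are not independent replicates.

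Genes of the marker and pathway lists with at least 10 CPM summed over their members were read along both pairs. Those past 2-fold in the same direction in both libraries are given first. The 3 members of Slc5a2, whose carrier SGLT2 marks the early proximal tubule, summed to 51.1 CPM in cluster 8 and 24.8 CPM in cluster 2, and to 73.8 CPM in cluster 6 and 16.9 CPM in cluster 0. Phgdh, the entry enzyme of serine synthesis, had 3 members at 21.7 against 8.44 CPM and 25.6 against 10.2 CPM. On the other side Slc5a8, a sodium-coupled monocarboxylate carrier, had 2 members at 2.53 against 13.4 CPM and 2.35 against 17.9 CPM. Hpd, an enzyme of tyrosine breakdown, had 5 members at 17.5 against 42.0 CPM and 20.5 against 62.6 CPM. The 1 member of Cyp4a14, a fatty acid hydroxylase, stood at 5.14 against 16.2 CPM and 4.84 against 17.5 CPM. Slc8a1, from the loop to collecting duct markers, and Nr3c2 were past 2-fold in old replicate 2 alone. Their log2 values were 1.09 and 1.05 there, and 0.81 and 0.42 in young. Proximal tubule markers varied in old replicate 2 and young: Slc34a1 stood at 0.07 and 0.04, and Lrp2 at -0.07 and 0.11. Slc5a12 stood at 0.58 and 1.05, and Slc13a3 at -0.69 and -1.51. Median counts per cell were 21892 in cluster 8 and 13967 in cluster 2, and 38224 in cluster 6 and 34312 in cluster 0, and the part of depth in these differences was not tested.

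**Figure D4:**
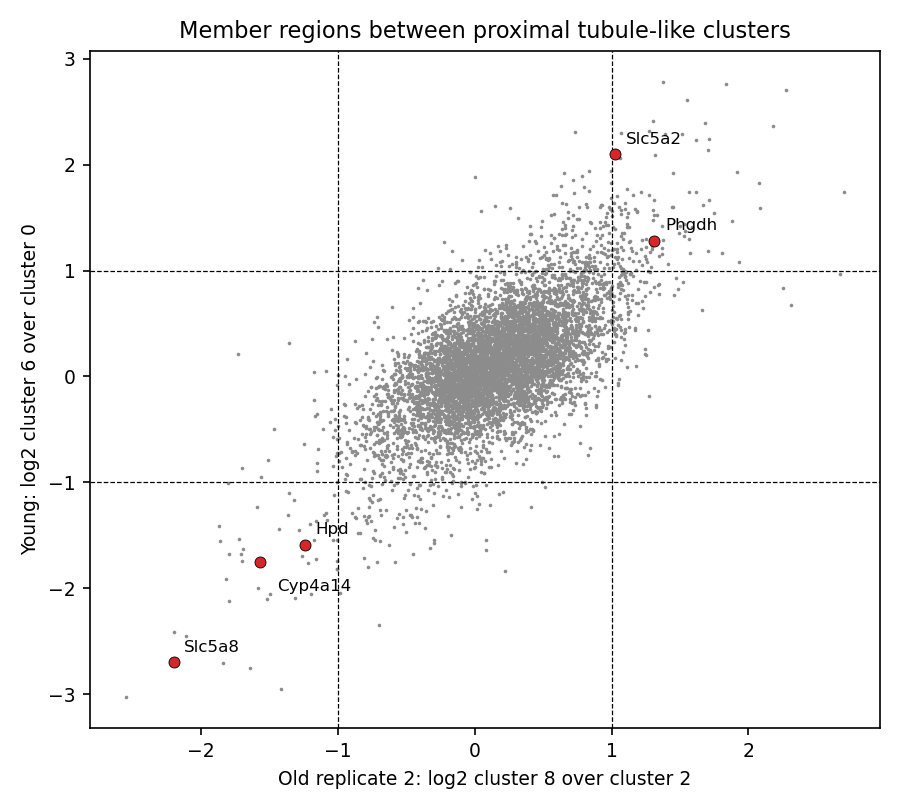
Log2 values of 6574 members (grey, at least 5 CPM) between proximal tubule-like clusters 8 and 2 of old replicate 2 (x axis) and clusters 6 and 0 of young (y axis), with dashed lines at a 2-fold difference; red points are sums over all members of a named gene. Slc5a2 and Phgdh lie at the upper right and Slc5a8, Hpd and Cyp4a14 at the lower left.

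The letters of promoters in members differed from those of promoters with a peak in every library, and for several motifs were close to those of all promoters. There were 917 RefSeq promoter windows inside members, 569 of them of protein-coding genes. Their median GC content was 53.0%, against 61.3% for the 13416 windows in regions with a peak in every library and 50% for the 1135 windows in regions called in old replicate 1 alone, and it was 52.7% over all 32851 windows. The letters CCGGAAGT of the ETS family were in 0.763% of member windows, 8.16% of the comparison windows and 3.89% of all windows, and the GC box GGGCGGG in 19.8%, 48.3% and 25.6%. GC content was over 60% in 22.5% of member windows and in 55.3% of the comparison windows, with 28.6% over all.

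The HNF4 letters CAAAGTCCA were in 14 member windows (1.53%), against 0.522% in the regions with a peak in every library, 0.441% in the regions of old replicate 1 alone and 0.475% of all 32851 windows. Pafah2, the zinc transporter gene Slc30a3 and the steroid dehydrogenase gene Hsd3b3 were among the genes. The PU.1 letters GAGGAAGT showed the reverse, in 1.31% of member windows, 2.81% of windows in regions with a peak in every library, 8.81% of those in regions of old replicate 1 alone and 3.20% of all windows. In the same order RUNX letters AACCACA were in 4.03%, 3.50%, 9.87% and 5.27%. AP-1 letters TGANTCA were in 7.96%, 4.82%, 14.9% and 7.81%, so members were at the level of all promoters. The rule required peaks of the tubule-rich libraries and left out peaks of the immune-rich library. The contrasts in HNF4, PU.1 and RUNX letters follow in part from that.

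All searches covered both strands, and letters of different factors may overlap. A match is a description of the sequence and not a binding site. Pafah2, which has the HNF4 letters, stood at 32.3 CPM in proximal tubule-like and 8.53 CPM in loop to collecting duct-like cells. In old replicate 2 and young it stood at 28.8 and 31.5 CPM.

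**Figure D5:**
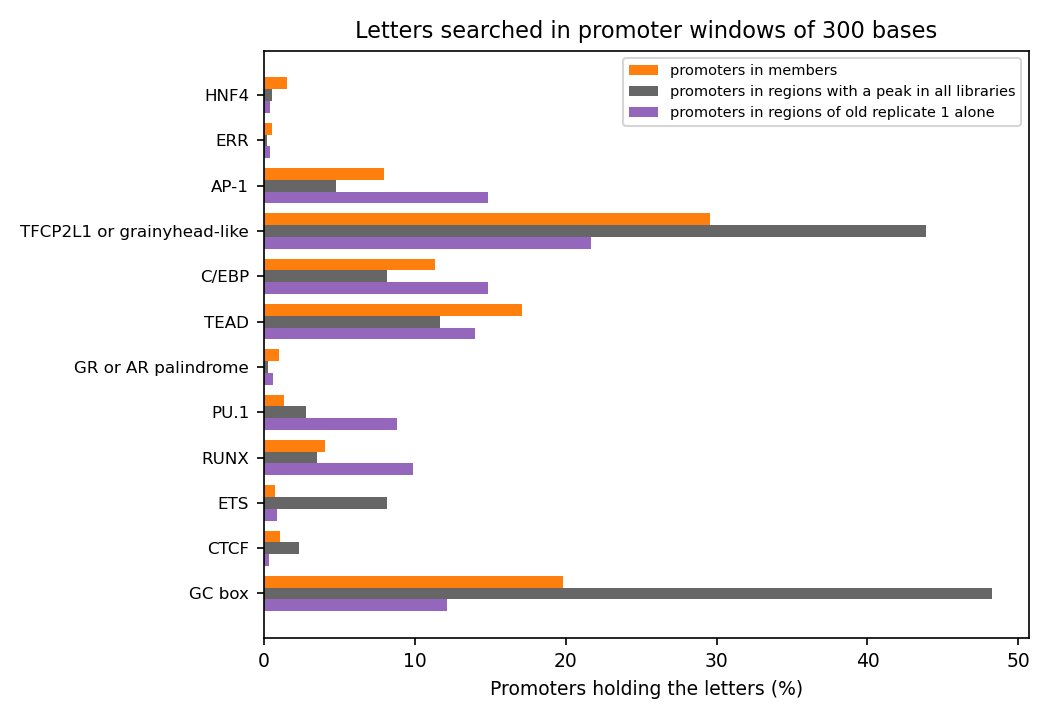
Share of promoter windows of 300 bases (percent) that hold the letters searched for each factor, for the 917 windows in members (orange), the 13416 in regions with a peak in every library (grey) and the 1135 in regions of old replicate 1 alone (purple). HNF4 letters are more frequent in members, and PU.1 and RUNX letters in regions of old replicate 1 alone, which follows in part from the rule that chose the members.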

How the data were processed

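Per the submitters' processing notes, the authors ran Cell Ranger ATAC 2.1.0 (mm10); peaks were called on each library alone. The deposited tables hold raw counts of cut sites per peak and barcode, with no normalization. Counts were summed over the peaks of a merged region. Barcodes with at least 1000 counts were kept, doublets scored against simulated doublets were removed, and cells were clustered on regions with a peak in every library (latent semantic indexing, 30 components, Leiden resolution 1; scikit-learn 1.9.0, leidenalg 0.10.2) and named from marker genes. Main values use all barcodes. A pseudocount of 0.5 CPM was added. Intervals are exact 95% intervals (Poisson for levels).

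No test was made. The regions and genes named are the 8 strongest members, the 8 with the largest and lowest log2 value at 5 CPM or more, the 8 genes with most members, and the 10 genes with the largest and lowest value among those with at least 3 members and 10 CPM. Promoters and list genes past 2-fold were chosen after their values had been seen. The members and lists were chosen with earlier results of these data known. Sequences at the centres of regions were planned; promoter windows of the RefSeq table were used in their place, and 17492 of 21900 protein-coding genes had one. Alternatives were other pseudocounts, filters, merging, cell sets and scalings (edgeR 4.0.16 TMM, DESeq2 1.42.0 size factors). Some items are not reported here. The calculation of log2 values was checked on simulated data.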

Additional observations from a re-analysis of the deposited data

How the results depend on the processing

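The 44981 members became 37529 when peaks within 500 bp were also merged, 34935 without those within 1000 bp of a peak of old replicate 1, and 61272 when peaks with a count in under 1% of barcodes were dropped. The share of counts in members was 14.1% in old replicate 2 and 13.3% in young over kept cells, and 14.5% and 13.7% in proximal tubule-like cells. Proximal tubule-like cells held 94.6% of member counts of old replicate 2 at Leiden resolution 2.0 and 96.6% of those of young at 0.5. Members past 2-fold higher in proximal tubule-like cells (1658) numbered 4258 with a minimum of 5 CPM over all barcodes and 17294 with no filter, and those higher in loop to collecting duct-like cells (2024) numbered 240 and 4839. The median log2 value between these classes (-0.23) reversed to 1.64 and 0.62. These filters were chosen after seeing the data, and they keep different members.

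Members past 2-fold in favour of old replicate 2 (1254) numbered 2388 with a pseudocount of 0.1, 203 with 2, and 3156 when every region called in both was used, which is the alternative without old replicate 1. In favour of young (211) the numbers were 584, 30 and 407, and 324 with DESeq2 size factors. The median log2 value (0.11) was 0.13 and 0.068 with these pseudocounts, 0.084 at 2 CPM or more, 0.040 with TMM and 0.030 with DESeq2 size factors. It was 0.10 for fragments, 0.10 in proximal tubule-like cells, 0.086 without old replicate 1 and 0.12 without cluster 21. Its sign held in all of these, but at 5 CPM or more the median was -0.09. Genes in favour of old replicate 2 (39) numbered 21 with a pseudocount of 2 and 19 with a nearest start within 20 kb. In favour of young (1) they numbered 3 with a pseudocount of 0.1, 4 with TMM, 5 with DESeq2 size factors, 4 in proximal tubule-like cells, 2 in kept cells and 2 within 20 kb. The cause of these differences was not tested.

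None of the 27 named regions and genes that were past 2-fold changed sign, and Grin3a was the 1 item no longer past it (-0.83 in proximal tubule-like cells, -0.51 without cluster 21). Leaving out cluster 21 and the use of kept cells for differences were chosen after seeing the data. No paired analysis was possible because the old libraries carry replicate numbers, the young library has none, and only 1 library per age holds the members. The low counts of most members limit the size of difference that can be read, and no spread between animals is known.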
